A study of Mus musculus with 21 samples.

Results

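Ribosome-bound mRNA of brain endothelial cells was compared with ribosome-bound mRNA of the entire forebrain, to find which transcripts are enriched in, and which are depleted from, the ribosomes of the brain vasculature at embryonic day 14.5. The comparison holds 6 of the 21 samples of the series, 3 libraries from forebrains of the genotype Cdh5CreERT2+/-;Gt(ROSA)26Sor-mCherry-Rpl10a+/- and 3 from Sox2Cre+/-;Gt(ROSA)26Sor-mCherry-Rpl10a+/- forebrains, and 19103 genes with at least 1 read in them. Members were chosen by sample label alone, so every gene entered the fit. Both groups carry the same allele, an mCherry-tagged ribosomal protein Rpl10a behind a floxed stop in the Rosa26 locus, driven by the ubiquitous CAGGS promoter and derived from a single targeted embryonic stem cell clone. Cdh5CreERT2 is a tamoxifen-inducible Cre under the VE-cadherin promoter and recombines in endothelium of any vessel bed, and tamoxifen was given by gavage at a time not given in the sources used here. Sox2Cre recombines in the epiblast and its derivatives, so that the tag was carried by cells of the forebrain in general, endothelium included. Each library was made from pooled forebrains, dissected with part of the diencephalon. The 3 endothelial libraries were sequenced in one lane and the 3 whole-forebrain libraries in another, so that sequencing lane and group cannot be told apart. Cre driver and group cannot be told apart either. Whether the Sox2Cre dams received tamoxifen is not given in the sources used here, so an effect of tamoxifen cannot be separated.

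Translating ribosome affinity purification (TRAP) pulls down tagged ribosomes with an antibody against the tag and recovers the mRNAs on them, so that no cell sorting is needed. In the embryonic forebrain, vessels sprout inwards from a perineural plexus under vascular endothelial growth factor and Notch signals. Wnt ligands from the neural tissue act through Frizzled receptors and beta-catenin in the endothelium to induce the blood-brain barrier, which is built from tight junctions, a low rate of transcytosis, and dedicated carriers for glucose, amino acids and other nutrients. Endothelial cells are a minor population in this tissue, and most of its RNA comes from neurons and their progenitors.

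The sample labels were checked on 14 endothelial and 3 neural marker genes used by the study. For Cdh5, the VE-cadherin gene whose promoter drives the Cre, the brain endothelial (EC) libraries held 368, 348 and 393 RPKM (reads per kilobase of transcript, scaled to the mapped reads of the library) and the whole-forebrain libraries 16.0, 18.4 and 15.4. The adhesion receptor gene Pecam1 had 337, 370 and 352 RPKM in the EC libraries against 19.4, 22.0 and 20.3. Slc2a1, which encodes the glucose transporter of the barrier, had 698, 713 and 754 RPKM against 50.2, 49.3 and 46.2. The groups did not overlap for any of the 3 genes, and the fitted log2 fold changes (EC minus whole forebrain) were 4.77 ± 0.10 (SE) for Cdh5, 4.39 ± 0.09 for Pecam1 and 4.18 ± 0.09 for Slc2a1. All 14 endothelial markers were higher, in a narrow range from 3.96 for Egfl7 to 4.84 for Nos3. Of the neural markers, Tubb3, a neuronal tubulin, was lower (324, 236 and 308 RPKM against 1311, 1268 and 1240, log2 fold change -1.85 ± 0.11), as was the progenitor transcription factor Sox3 (-1.92 ± 0.10). Chd5, a neuronal chromatin remodeller, had 10.5, 11.8 and 11.1 RPKM against 14.4, 15.2 and 15.9 and did not pass the test (-0.15 ± 0.07, adjusted p = 0.071). The labels matched their defining markers. Neural mRNA remained in the EC libraries, where the 3 neural markers summed to 252 to 340 RPKM, against 1277 to 1348 in the whole forebrain. In the kidney endothelial libraries of the same series they summed to 0.161 to 0.34. The whole kidney translatome itself held only 0.506 to 3.52 RPKM of them, so the kidney value gives no baseline for carry-over.

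**Figure D1:**
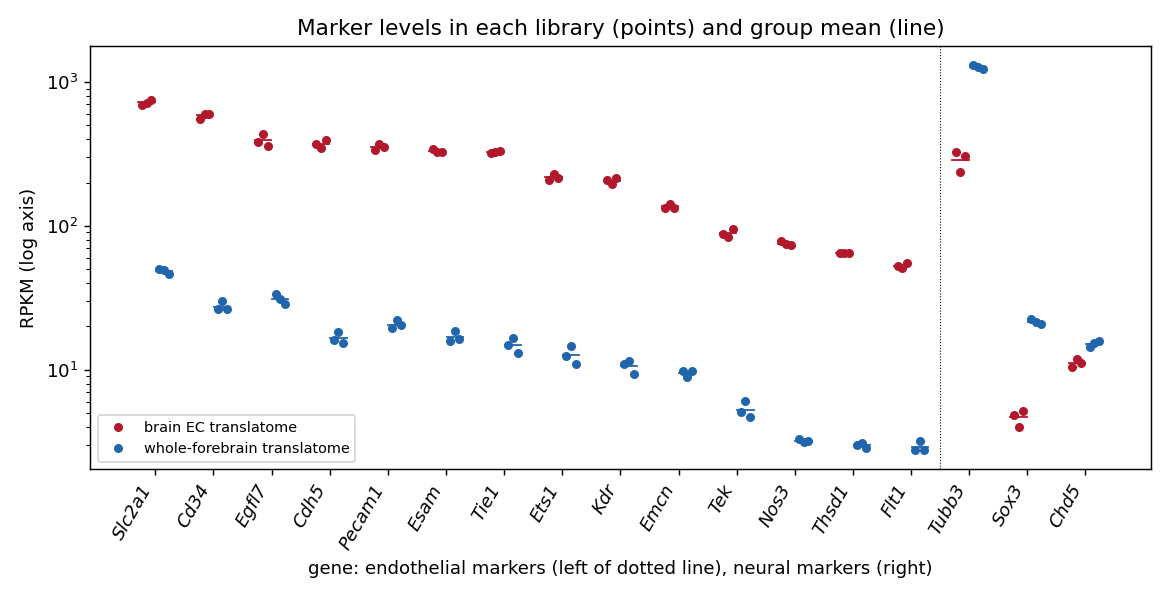
RPKM on a log axis for 14 endothelial and 3 neural marker genes, with a point for each of the 3 libraries of a group and a line at the group mean. All 14 endothelial markers lie higher in the EC libraries, Slc2a1 for example at 698 to 754 against 46.2 to 50.2 RPKM, and Tubb3 and Sox3 lie lower.

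Depth was high in all libraries used. The EC libraries held 53.5 to 62.5 M counted reads and the whole-forebrain libraries 30.5 to 45.8 M. Replicates differed from each other by more than sampling noise in every pair, so each was counted as its own library. The scaling factors for RNA composition were 0.899 to 0.904 in the EC libraries and 1.10 to 1.11 in the whole forebrain, so that a log2 ratio of RPKM values lies about 0.29 below the fitted log2 fold change of the same gene (median over 10403 genes). In bulk libraries such as these, fewer cells of a type and less RNA per cell cannot be told apart.

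Promoters of genes of endothelial surface proteins and of Slc2a1 are shown because endothelial genes are known targets of ETS-family factors, which bind a core of GGAA, and members of that family were themselves among the enriched genes. RefSeq windows of 250 bases before the transcription start (GRCm38.p6) were searched on both strands for the ETS-type letters CAGGAAG or CCGGAAG, the forkhead letters TGTTTAC and the SOX letters ACAATGG, none of which is contained in another. ETS-type letters were present in 9 of 22 endothelial surface and junction genes with a window, or 40.9%, against 19% of 27018 genes and 17% of 32841 windows. Forkhead and SOX letters were found in 0 of these 22 genes, and in 3.54% and 3.46% of all genes. ETS-type letters were present in the windows of 9 of 35 endothelial transcription factor genes, or 25.7%. For 43 nutrient transporters the share was 11.6%, and for 30 pan-neuronal genes 13.3%. A match describes letters and not a bound site. The windows of Robo4 (chr9:37401722-37401971, plus strand), Emcn (chr3:137340828-137341077, plus strand), Cd34 (chr1:194938571-194938820, plus strand) and Slc2a1 (chr4:119108495-119108744, plus strand) read as follows, 5′ to 3′, with ETS-type letters in capitals. The first 3 genes encode endothelial surface proteins and were picked after their matches were seen. They hold a match, at bases -50, -174 and -142 from the start, and the window of Slc2a1 holds none. The windows of the endothelial genes Tie1, Tek and Cldn5, not printed here, were also searched and hold none.
Robo4: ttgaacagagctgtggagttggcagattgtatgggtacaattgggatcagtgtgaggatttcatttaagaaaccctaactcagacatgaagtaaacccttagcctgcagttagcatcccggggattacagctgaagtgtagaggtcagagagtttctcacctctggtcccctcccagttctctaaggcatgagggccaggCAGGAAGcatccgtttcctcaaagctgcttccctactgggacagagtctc
Emcn: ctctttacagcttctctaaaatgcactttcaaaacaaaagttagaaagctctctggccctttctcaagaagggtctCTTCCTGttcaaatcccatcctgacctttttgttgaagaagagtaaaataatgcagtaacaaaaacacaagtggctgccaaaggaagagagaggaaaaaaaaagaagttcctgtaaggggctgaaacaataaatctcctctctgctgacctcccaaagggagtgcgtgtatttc
Cd34: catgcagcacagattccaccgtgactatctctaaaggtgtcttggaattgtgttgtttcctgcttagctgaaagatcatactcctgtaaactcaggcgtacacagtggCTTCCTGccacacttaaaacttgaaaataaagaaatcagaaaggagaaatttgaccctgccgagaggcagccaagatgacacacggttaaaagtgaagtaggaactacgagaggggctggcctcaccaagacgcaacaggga
Slc2a1: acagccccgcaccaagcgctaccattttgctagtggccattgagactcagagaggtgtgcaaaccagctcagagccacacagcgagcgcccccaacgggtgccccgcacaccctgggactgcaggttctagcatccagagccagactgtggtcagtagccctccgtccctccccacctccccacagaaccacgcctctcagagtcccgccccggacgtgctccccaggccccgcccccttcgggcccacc

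Across all genes, 4740 (24.8% of those tested) were higher in the EC libraries and 4084 (21.4%) were lower at an adjusted p under 0.001 in edgeR's quasi-likelihood test. The list counts below are to be read against these shares. The sizes were not symmetric. More than 4-fold differences were found for 1516 higher genes (7.94%) and 516 lower genes (2.7%), and more than 8-fold differences for 809 (4.23%) and 56 (0.293%). More than 16-fold higher were 304 genes (1.59%), and 10279 genes (53.8%) did not pass. The median log2 fold change over all genes was -0.01, with 1% of genes below -3.07 and 1% above 4.40. Without the scaling for RNA composition, all values shifted by -0.30 and the calls divided into 3397 higher and 6002 lower genes, so that 36.1% of calls were higher instead of 53.7%. A positive value under 0.30 would turn negative with that scaling.

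**Figure D2:**
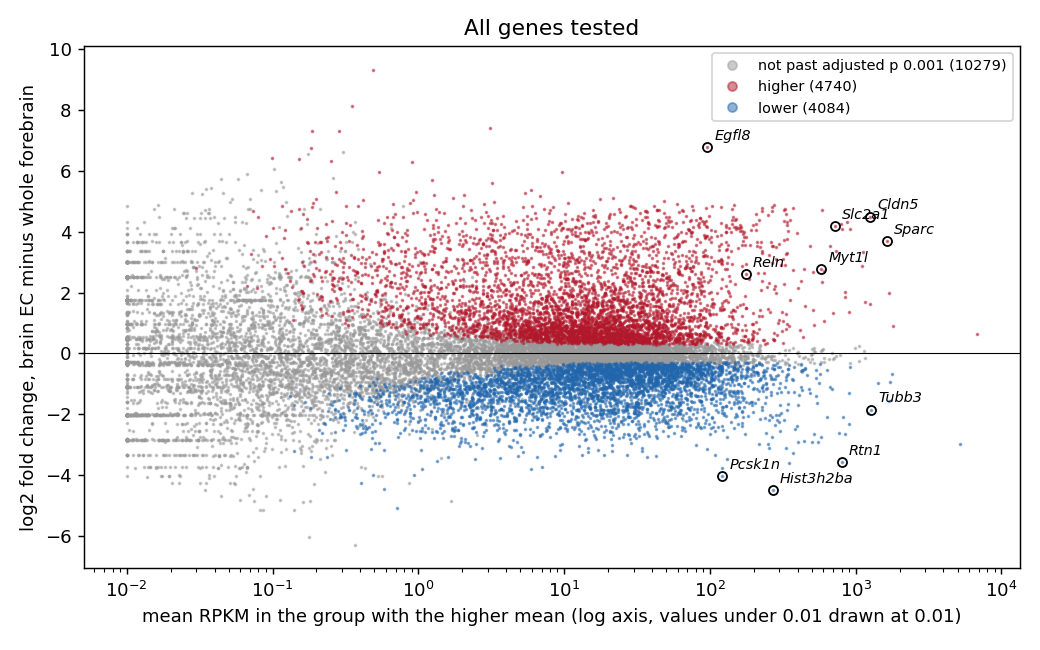
Fitted log2 fold change, EC minus whole forebrain, of 19103 genes against the mean RPKM in the group where it is higher (log axis), with 4740 higher genes in red, 4084 lower genes in blue and the rest in grey. The spread upwards reaches further than downwards at the same level, with Egfl8 at 6.77 and Hist3h2ba at -4.50 among the genes over 5 RPKM.

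Genes of endothelial surface and junction proteins were mostly enriched, to differing degrees. Of 46 genes, 42 were higher, 40 of them more than 4-fold, with a median log2 fold change of 4.27. The higher genes ran from Jam2 at 1.39 and Stab2 at 1.78 to Mmrn2 at 4.92. The tight junction claudin gene Cldn5 had the highest level, with 1350, 1291 and 1147 RPKM in the EC libraries against 60.6, 74.7 and 69.6 in the whole forebrain (4.50 ± 0.11). Next was Ramp2, a subunit of the adrenomedullin receptor, at 951, 886 and 797 RPKM against 48.5, 59.7 and 53.7 (4.31 ± 0.10). Plvap, a component of the diaphragms of fenestrae and caveolae that mature barrier vessels lose, was enriched to the same degree (78.1, 80.6 and 94.4 RPKM against 5.80, 5.05 and 4.94, 4.29 ± 0.10). The member that went the other way was Vcam1, an adhesion receptor for leukocytes that radial glia also express, which was lower by a small margin (6.67, 6.48 and 6.75 RPKM against 10.6, 10.7 and 10.6, -0.39 ± 0.07). The lymphatic and macrophage receptor gene Lyve1 did not pass the test (-0.28 ± 0.11, adjusted p = 0.049), and the selectin genes Sele and Selp reached at most 0.0277 and 0.00729 RPKM in any library of both groups.

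**Figure D3:**
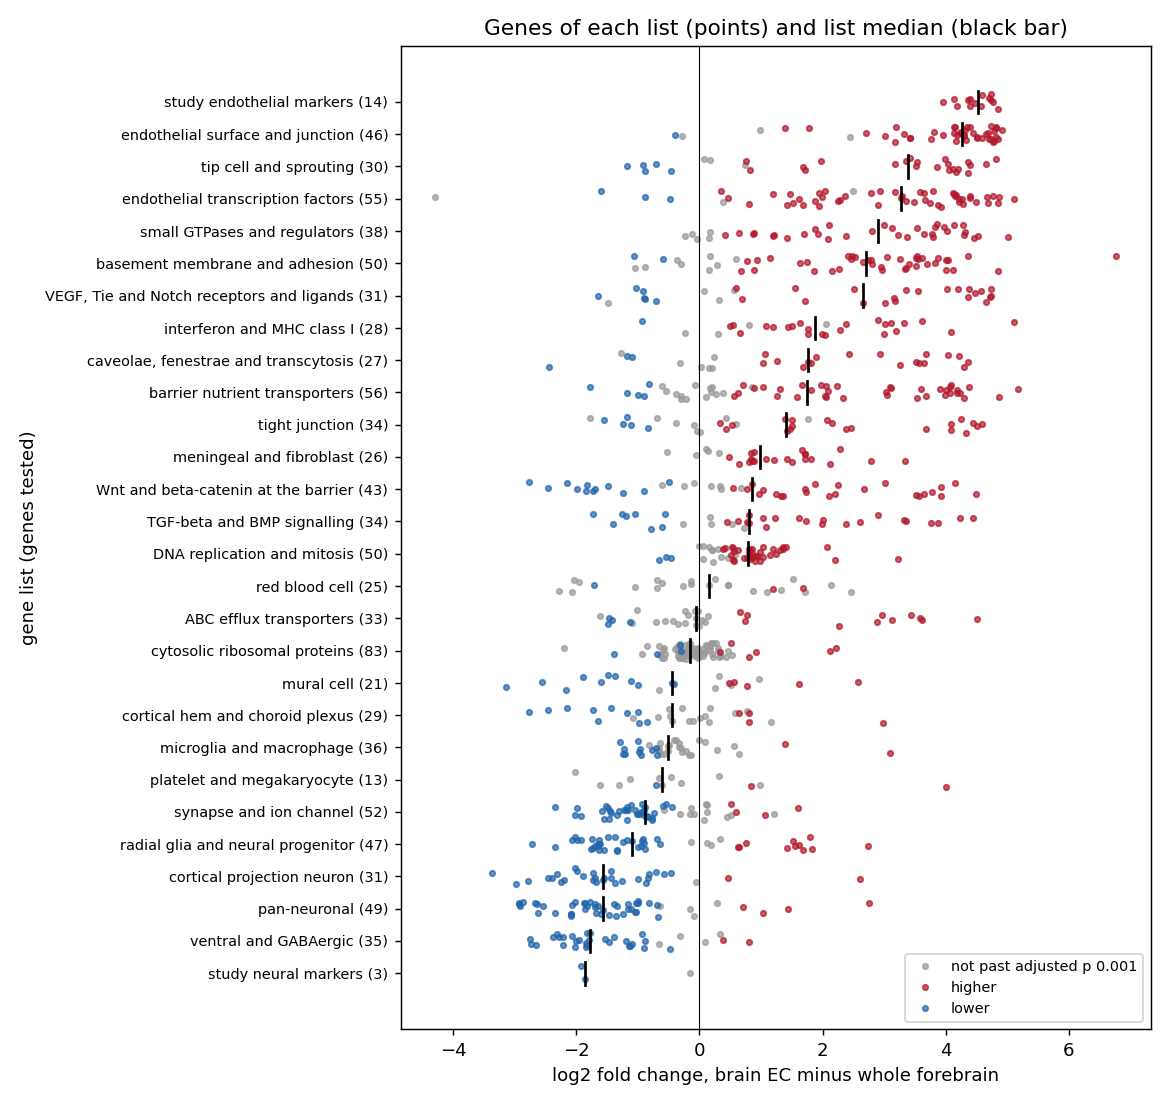
Fitted log2 fold changes, EC minus whole forebrain, of the genes in 28 lists, with a point for each gene, coloured by call at an adjusted p of 0.001, and a black bar at the list median. The endothelial lists lie to the right, with a median of 4.27 for surface and junction genes, and the neuronal lists to the left, with a median of -1.77 for ventral and GABAergic genes.

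Among genes over 5 RPKM, the largest rise was that of Egfl8, a paralogue of the endothelial secreted factor Egfl7, on chr17:34613349-34616562. Egfl8 had 114, 84.6 and 90.5 RPKM in the EC libraries and 1.04, 1.18 and 1.01 in the whole forebrain, a 109-fold difference (6.77 ± 0.14). In the libraries of the Emx1-lineage it had 0.209 to 0.299 RPKM and in kidney endothelium 5.10 to 6.04. The kit does not mark strand, so reads of overlapping transcripts at this locus cannot be told apart. The next were Adh1, an alcohol and retinol dehydrogenase (13.1, 6.23 and 9.83 RPKM against 0.180, 0.294 and 0.097, 5.96 ± 0.34), and Slfn5, a schlafen-family gene (5.37 ± 0.14). Among the other 12 of the 15 largest rises were the hedgehog ligand gene Dhh (5.26 ± 0.17), the riboflavin transporter gene Slc52a3 (5.17 ± 0.19), the T-box factor gene Tbx1 (5.11 ± 0.14) and the inducible nitric oxide synthase gene Nos2, with 17.0, 18.7 and 17.2 RPKM against 0.609, 0.747 and 0.560 (5.08 ± 0.11). The GTPase gene Gimap4, the addressin gene Madcam1, the matrix gene Mmrn2, the peptidoglycan-recognition gene Pglyrp1, the amino acid transporter gene Slc38a5, the flow-responsive factor gene Klf2, Tnfaip2 and the cytokine receptor chain gene Il2rg followed, between 4.85 and 5.01. These 15 genes were chosen for groups that do not overlap in RPKM, which held for 70.1% of all tested genes.

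Transcription factors with roles in endothelium were higher in 49 of 55 cases, 36 of them more than 4-fold, with a median of 3.28. The inhibitor of differentiation gene Id3 had the highest level (325, 346 and 308 RPKM against 57.1, 56.1 and 47.4, 2.90 ± 0.09). Sox18, a determinant of vascular development, had 256, 286 and 255 RPKM against 11.7, 14.4 and 12.0 (4.68 ± 0.10), and its relatives Sox7 and Sox17 rose by 4.77 ± 0.11 and 4.49 ± 0.09. The ETS-family genes differed among themselves. Ets1, Fli1 and Erg rose by 4.40, 4.40 and 4.67, whereas Elf2, at 44.1, 47.4 and 48.0 RPKM against 45.6, 43.2 and 43.9, rose by 0.36 ± 0.06. Forkhead genes covered a similar range, from Foxl2 (27.8, 30.4 and 28.2 RPKM against 1.18, 1.39 and 1.10, 4.85 ± 0.10), Foxq1 (4.15 ± 0.09) and Foxf2 (3.92 ± 0.08) to Foxp1 (0.81 ± 0.08), which neurons also express. Against the direction of the list went Nr2f2, which specifies venous identity and also marks ventral interneurons (34.0, 31.5 and 34.5 RPKM against 52.4, 56.4 and 58.4, -0.48 ± 0.07), the lymphatic factor Prox1 (-0.88 ± 0.10) and the mural Notch target Heyl (-1.60 ± 0.09). Hey2, Gata5 and Etv2 did not pass the test, and the early haemato-endothelial factor Etv2 was read only in the whole forebrain, at 0.0312 to 0.0926 RPKM.

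Among the receptors and ligands of the VEGF, Tie, ephrin and Notch systems, the endothelial VEGF and Tie receptors were higher and several ligands were lower. Of 31 genes, 21 were higher, 6 were lower and 4 did not pass, with a median of 2.65. The angiopoietin receptor genes Tie1 (320, 325 and 329 RPKM against 14.8, 16.7 and 13.0, 4.74 ± 0.10) and Tek (4.36 ± 0.11) and the VEGF receptor genes Kdr (207, 197 and 216 against 10.9, 11.5 and 9.38, 4.57 ± 0.10), Flt1 (4.47 ± 0.09) and Flt4 (4.65 ± 0.08) lay close together. The co-receptor genes Nrp1 and Nrp2, which growth cones also use, rose by less (1.71 ± 0.07 and 0.59 ± 0.07). Of the Notch ligands, the endothelial Dll4 rose most, by more than 4 on the log2 scale. Jag2 rose by 3.01 ± 0.08 and Jag1 by 2.65 ± 0.08 on that scale. The neural ligand genes Dll1 and Dll3 were lower (-0.91 ± 0.07 and -1.65 ± 0.09). Notch4 rose by 4.37 ± 0.09 and Notch1 by 1.55 ± 0.07, and Notch3, the receptor of mural cells, had 14.2, 13.0 and 18.4 RPKM against 16.8, 14.6 and 13.3 and did not pass. The growth factor genes Vegfa (4.21, 3.96 and 5.04 RPKM against 8.93, 9.84 and 11.0, -0.88 ± 0.11), Vegfb (-0.89 ± 0.08), Pgf (-0.70 ± 0.15) and Angpt1 (-1.02 ± 0.13) were lower, while Vegfc (2.51 ± 0.10) and Angpt2 (3.17 ± 0.13), which endothelium secretes, were higher. Efnb2, an arterial ephrin that neural progenitors also make, had 50.7, 52.2 and 53.3 RPKM against 55.8, 60.1 and 64.3 and did not pass (0.08 ± 0.07).

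Genes of the sprouting tip cell were higher in 22 of 30 cases, with a median of 3.39. Apln, the ligand of the apelin system, had 132, 167 and 157 RPKM against 9.83, 11.0 and 10.2 (4.17 ± 0.10), and its receptor gene Aplnr 261, 282 and 256 against 10.3, 13.0 and 11.6 (4.81 ± 0.11). Pdgfb, which recruits pericytes, rose by 4.40 ± 0.10, Igfbp3 by 3.98 ± 0.11, Adm by 4.06 ± 0.19 and the endothelial proteoglycan Esm1 by 3.86 ± 0.12. The actin-bundling gene Fscn1 had the highest level of the list in both groups and differed little (428, 421 and 404 RPKM against 304, 299 and 301, 0.76 ± 0.07). The 5 members that neural cells also express and that went the other way were Vegfa, the guidance receptor gene Robo1 (-0.46 ± 0.09), the chemokine receptor gene Cxcr7 (-0.70 ± 0.09), Inhbb (-0.92 ± 0.08) and the endothelin receptor gene Ednrb (-1.17 ± 0.09).

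Small GTPases with roles in endothelium and their regulators were higher in 33 of 38 cases and lower in 0, with a median of 2.90. The adhesion regulator Rasip1 had 112, 106 and 110 RPKM against 8.13, 8.63 and 8.01 (4.02 ± 0.07), and the endothelial GTPase gene Rhoj 129, 133 and 125 against 12.5, 13.4 and 11.8 (3.65 ± 0.08). The 5 GTPases of the immunity-associated Gimap family, Gimap1, Gimap4, Gimap5, Gimap6 and Gimap8, lay between 4.30 and 5.01. The widely expressed GTPase genes Rhob (1.43 ± 0.07) and Rap1b (1.20 ± 0.07) rose by less. Among the 5 that did not pass were Krit1 (0.17 ± 0.07) and Ccm2 (-0.03 ± 0.08), which underlie cavernous malformations and act in many cell types.

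In the TGF-beta and BMP pathways 21 of 34 genes were higher and 8 were lower, with a median of 0.80. The endothelial receptor genes Eng (326, 349 and 345 RPKM against 19.6, 24.3 and 22.4, 4.23 ± 0.10), Acvrl1 (4.44 ± 0.08) and Tgfbr2 (3.87 ± 0.10), the ligand gene Tgfb1 (3.76 ± 0.10) and the target gene Id1 (3.36 ± 0.08) rose most. The type I receptor genes Tgfbr1 (-0.60 ± 0.07), Bmpr1a (5.94, 6.10 and 5.26 RPKM against 18.0, 19.3 and 18.5, -1.40 ± 0.07) and Bmpr1b (-1.04 ± 0.14) were lower, as were Acvr2a, Id2, Gdf11, Tgfb3 and Bmper, with Id2 at -1.73 ± 0.10. The signal transducers Smad2 (0.17 ± 0.10) and Smad4 (0.19 ± 0.06) did not pass, and Smad1 rose by 0.45 ± 0.06.

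Genes of the Wnt pathway moved in both directions, receptors and transcription factors included. Of 43 genes, 24 were higher, 12 were lower and 7 did not pass, with a median of 0.86. Several ligands and secreted potentiators were lower. Wnt7b, the forebrain ligand for vessels, had 20.6, 17.5 and 17.2 RPKM against 75.8, 83.6 and 83.5 (-1.84 ± 0.08), Wnt7a 4.28, 4.43 and 3.61 against 17.1, 17.8 and 18.4 (-1.82 ± 0.09), and Ndp 1.31, 1.20 and 0.975 against 5.95, 5.72 and 5.15 (-1.98 ± 0.14). The R-spondin genes Rspo1 and Rspo3 fell by 2.15 and 2.76, and the cortical hem ligand genes Wnt3a and Wnt8b by 2.45 and 1.72. Wnt5a did not pass (0.36 ± 0.08, adjusted p = 0.0012). The components with which endothelium receives Wnt7 and Norrin were higher, namely the receptor genes Fzd4 (16.1, 17.8 and 17.9 RPKM against 1.55, 1.47 and 1.61, 3.77 ± 0.09) and Fzd6 (3.92 ± 0.08), the co-receptor gene Lrp5 (2.21 ± 0.07), the co-activators Gpr124 (79.9, 89.9 and 72.2 against 7.41, 10.2 and 7.26, 3.57 ± 0.13) and Reck (2.10 ± 0.09), and Tspan12 (1.36 ± 0.07). Other Frizzled genes, Fzd2, Fzd3, Fzd8 and Fzd9, were lower by 0.49 to 1.70 on the log2 scale. Downstream, Ctnnb1, which encodes beta-catenin, had 727, 674 and 705 RPKM against 343, 360 and 329 (1.32 ± 0.08). The transcription factor genes Tcf7 and Lef1 rose by 3.65 ± 0.09 and 2.25 ± 0.07, while Tcf7l2, a marker of the thalamus at this stage, had 35.1, 30.8 and 31.5 RPKM against 115, 105 and 131 (-1.49 ± 0.09). The Wnt target and inhibitor Apcdd1 reached 703, 676 and 629 RPKM against 80.1, 70.3 and 63.0 (3.52 ± 0.10), the second highest level of this list, and the general target gene Axin2 rose by 0.78 ± 0.07.

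Nutrient transporters of the barrier were higher in 37 of 56 cases, 26 of them more than 4-fold, with a median of 1.74. The light and heavy chains of the large neutral amino acid carrier, Slc7a5 and Slc3a2, had 811, 820 and 775 RPKM against 55.0, 61.9 and 57.3 (4.08 ± 0.09) and 285, 266 and 294 against 42.0, 42.3 and 37.1 (3.09 ± 0.08). The glutamine carriers Slc38a5 (293, 269 and 263 RPKM against 10.9, 13.8 and 9.88, 4.87 ± 0.12) and Slc38a3 (4.01 ± 0.08), the cationic amino acid carrier Slc7a1 (4.07 ± 0.10), the lipid carrier Mfsd2a (176, 172 and 162 against 16.8, 17.2 and 14.6, 3.68 ± 0.08), the thyroid hormone carrier Slco1c1 (4.18 ± 0.12), the iron exporter Slc40a1 (4.37 ± 0.08) and the metal carrier Slc39a8 (4.23 ± 0.08) rose to a similar degree. The organic anion carrier Slc22a8 had 28.6, 21.8 and 21.4 RPKM against 1.40, 1.87 and 1.22 (4.30 ± 0.16). Carriers known from the barrier that did not pass were the lactate carrier Slc16a1 (4.61, 4.16 and 4.08 RPKM against 4.38, 4.92 and 4.58, 0.18 ± 0.08) and Slco1a4, at 0.361 to 0.552 RPKM over both groups. The 5 genes that were lower were the neuronal glucose carrier Slc2a3 (1.80, 1.74 and 1.68 RPKM against 6.48, 7.33 and 7.93, -1.77 ± 0.10), the glutamate carriers Slc1a1 and Slc1a3 (-1.17 ± 0.11 and -0.89 ± 0.10), the monoamine carrier Slc29a4 and the lipoprotein receptor gene Vldlr (-0.82 ± 0.10).

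The efflux transporters of the ABC superfamily were higher in 11 of 33 cases (33.3%), lower in 4 (12.1%) and not past the test in 18, with a median of -0.05. Over all genes tested, 24.8% were higher and 21.4% lower. Abcb1a, the P-glycoprotein gene of the mouse barrier, had 15.6, 14.3 and 17.6 RPKM against 0.831, 0.763 and 0.962 (4.51 ± 0.11). Abcg2, the breast cancer resistance protein gene, had 115, 116 and 126 RPKM against 12.0, 12.7 and 10.9 (3.61 ± 0.08), and the cholesterol exporters Abca1 and Abcg1 rose by 3.44 ± 0.08 and 2.89 ± 0.07. Abcc4 rose by 2.96 ± 0.13, whereas Abcc1, a further multidrug exporter, had 1.82, 2.29 and 1.74 RPKM against 2.98, 3.11 and 3.00 and did not pass (-0.35 ± 0.11). The lower members were Abcg4, Abcg5 and the sulfonylurea receptor genes Abcc8 and Abcc9, the last of which pericytes express.

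Tight junction genes were higher in 20 of 34 cases and lower in 5, with a median of 1.41. Besides Cldn5, the tricellular protein genes Lsr (156, 149 and 143 RPKM against 10.3, 11.7 and 10.3, 4.09 ± 0.08) and Marveld2 (3.68 ± 0.14), occludin, Ocln (23.9 to 27.1 against 1.72 to 1.97, 4.09 ± 0.09), and the adhesion molecules Esam (4.59 ± 0.09) and F11r (4.25 ± 0.07) were among the largest rises. The scaffold gene Tjp1 rose by 2.46 ± 0.10. Cgnl1, a cingulin paralogue, varied among the EC libraries (18.3, 14.0 and 28.3 RPKM against 1.08, 1.48 and 0.838, 4.45 ± 0.25). Other claudins that have been named at the barrier had other values. Cldn12 had 6.85, 7.00 and 6.75 RPKM against 10.2, 12.1 and 10.7 and did not pass (-0.38 ± 0.08), Cldn3 was at 0.754 to 1.02 RPKM and lower (-1.24 ± 0.18), and Cldn1 did not pass (0.59 ± 0.15). Jam3, Pard6g, Tjp3 and Marveld3 were also lower, by 0.83 to 1.55 on the log2 scale.

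Caveolae, fenestrae and transcytosis genes were higher in 18 of 27 cases and lower in 3, with a median of 1.77. The caveolar coat genes Cav1 (190, 189 and 191 RPKM against 11.4, 14.4 and 15.7, 4.04 ± 0.11), Cav2 (3.65 ± 0.08), Ptrf (4.21 ± 0.10) and Prkcdbp (3.56 ± 0.07) rose together with Mfsd2a, which is known to restrain caveolar transport. The clathrin heavy chain gene Cltc had the highest level in both groups (643, 544 and 620 RPKM against 382, 338 and 334, 1.07 ± 0.10). The fatty acid carrier Fabp5 was lower and varied in the whole forebrain (14.5, 12.4 and 9.40 RPKM against 61.6, 114 and 65.6, -2.44 ± 0.22), as were Pacsin3 and the muscle cavin Murc.

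Components of the basement membrane and the integrins that bind it were higher in 40 of 50 cases, 32 of them more than 4-fold, and lower in 2, with a median of 2.70. The collagen-binding protein gene Sparc had 1663, 1588 and 1674 RPKM against 148, 164 and 152 (3.70 ± 0.09), and agrin, Agrn, 421, 361 and 423 against 109, 119 and 103 (2.15 ± 0.10). Perlecan, Hspg2 (331, 324 and 316 RPKM against 21.0, 21.1 and 15.9, 4.36 ± 0.13), the collagen IV genes Col4a1 and Col4a2 (3.51 ± 0.12 and 3.54 ± 0.12), and nidogen 2, Nid2 (4.03 ± 0.12), rose strongly. The endothelial laminin chains Lama4 (4.11 ± 0.12) and Lama5 (4.00 ± 0.14) rose more than Lama1 (2.65 ± 0.16) and Lama2 (2.52 ± 0.14), which parenchymal and pial basement membranes hold. The fibronectin receptor subunit Itga5 rose by 3.87 ± 0.09 and Itgb1 by 2.27 ± 0.08. The lower members were Itgb5 (-0.59 ± 0.09) and Itgb8 (2.06, 2.09 and 2.54 RPKM against 5.31, 5.84 and 5.88, -1.06 ± 0.11), an integrin that neuroepithelium uses to activate TGF-beta.

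Interferon and MHC class I genes were higher in 23 of 28 cases, with a median of 1.88. The light chain gene B2m had 303, 334 and 318 RPKM against 45.3, 47.2 and 42.7 (3.11 ± 0.07). The heavy chain gene H2-D1 was variable in both groups (104, 112 and 70.9 RPKM against 7.86, 16.3 and 14.5, 3.20 ± 0.23), and such heavy chain genes are near-identical copies whose reads may be assigned uncertainly. The antiviral membrane proteins Bst2 and Ifitm3 rose by 3.33 ± 0.11 and 3.61 ± 0.13. The interferon-induced genes Isg15 and Ifit1 stayed at low levels. Isg15 lay higher in every EC library all the same, at 1.81, 3.23 and 3.82 RPKM against 0.521, 0.433 and 0.471 (log2 fold change 2.90). Ifit1 was at 0 to 0.0594 RPKM over both groups. Ifit2 was lower (-0.93 ± 0.10).

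Replication and mitosis genes were higher in 36 of 50 cases but by small amounts, with a median of 0.79. The mini-chromosome maintenance genes Mcm3 and Mcm6 rose by 1.36 ± 0.10 and 1.20 ± 0.09, and the kinase gene Cdk1 had 47.1, 45.3 and 51.1 RPKM against 24.9, 22.7 and 20.6 (1.36 ± 0.08). Mki67 (26.2, 24.7 and 27.8 RPKM against 33.2, 27.8 and 25.4) and Pcna did not pass. Cyclin D genes divided, with Ccnd1 (2.08 ± 0.07) and Ccnd3 (2.21 ± 0.07) higher and Ccnd2 lower (66.6, 78.3 and 66.2 RPKM against 120, 139 and 147, -0.65 ± 0.10). The largest difference of the list was that of the cell cycle inhibitor gene Cdkn1a (81.7, 104 and 94.5 RPKM against 13.3, 12.1 and 11.4, 3.22 ± 0.10). Cdk4 and Cdkn1b were lower by 0.54 and 0.46 on the log2 scale.

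Genes of neurons and their progenitors were depleted, though less than endothelial genes were enriched. Of 49 pan-neuronal genes, 41 were lower, 14 of them more than 4-fold, and 4 were higher, with a median of -1.56. After Tubb3, the highest levels in the whole forebrain were those of Cd24a (118, 103 and 103 RPKM in the EC libraries against 824, 823 and 874, -2.67 ± 0.09) and Nsg2 (115, 103 and 91.6 against 744, 763 and 809, -2.62 ± 0.10). The growth cone gene Gap43 (68.0, 46.8 and 61.2 RPKM against 581, 533 and 530, -2.93 ± 0.12), Stmn3 (-2.91 ± 0.12) and Nsg1 (-2.92 ± 0.09) were depleted most within the list. Cortical projection neuron genes were lower in 28 of 31 cases (median -1.56), with Rnd2 at 43.0, 55.5 and 39.1 RPKM against 263, 275 and 229 (-2.19 ± 0.12) and Neurod6 at 30.9, 18.9 and 17.6 against 207, 220 and 223 (-2.98 ± 0.17). Ventral and GABAergic genes were lower in 29 of 35 cases (median -1.77), with Sst at 30.0, 19.5 and 27.6 RPKM against 142, 161 and 165 (-2.31 ± 0.13) and Dlx5 at -2.73 ± 0.08. Genes of synapses and ion channels were lower in 36 of 52 cases (median -0.88), with the scaffold gene Dlg4 highest (44.7, 43.3 and 41.3 RPKM against 159, 152 and 160, -1.58 ± 0.07). Radial glia and progenitor genes were lower in 32 of 47 cases (median -1.10), with the lipid carrier Fabp7 at 174, 118 and 146 RPKM against 953, 837 and 922 (-2.34 ± 0.12).

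The 15 largest falls among genes over 5 RPKM in the whole forebrain were led by the histone gene Hist3h2ba (11.5, 9.14 and 8.57 RPKM against 290, 252 and 266, -4.50 ± 0.11) and the neuroendocrine gene Pcsk1n (6.58, 6.37 and 5.30 against 121, 118 and 126, -4.03 ± 0.09). With them stood the reticulon gene Rtn1 (64.1, 43.5 and 47.7 RPKM against 734, 795 and 882, -3.58 ± 0.14), the secretory granule gene Scg5 (-3.49 ± 0.16), Igfbpl1 (-3.60 ± 0.14), Ttc9b (-3.76 ± 0.12), the retinoid-binding gene Crabp1 (-3.38 ± 0.11), the hypothalamic peptide gene Pmch (-3.37 ± 0.32) and the calcium-binding gene Calb2 (-3.36 ± 0.13). The others, Samd3, Gm11110, Serinc2, Riiad1, Nrsn2 and 2900011O08Rik, lay between -3.80 and -3.35.

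Several genes used as neural markers went against their lists. Myt1l, a neuronal zinc finger factor, had 593, 766 and 374 RPKM in the EC libraries against 119, 97.7 and 94.8 (2.76 ± 0.21), although it was read at only 0.0133 to 0.036 RPKM in kidney endothelium and at 142 to 153 in the Emx1-lineage. Reln, the secreted guide of cortical layering, had 175, 226 and 129 RPKM against 33.4, 36.8 and 36.5 (2.60 ± 0.16), and 53.2 to 56.9 in the Emx1-lineage. For both genes every EC library lay above every whole-forebrain library, and EC replicate 2 was highest and EC replicate 3 lowest. The presynaptic gene Bsn (1.44 ± 0.12) and the neurofilament genes Nefm (65.2, 54.9 and 61.7 RPKM against 40.0, 35.5 and 33.0, 1.03 ± 0.08) and Nefl (0.71 ± 0.10) were the other pan-neuronal genes that were higher, and Mef2c (0.46 ± 0.08), Foxp1 and Zfp503 (0.38 ± 0.07) those of the projection neuron and ventral lists. Among synapse and channel genes these were the scaffold gene Shank3 (15.9, 19.6 and 15.5 RPKM against 6.57, 7.26 and 6.79, 1.60 ± 0.09), which kidney endothelium also held at 33.6 to 38.8 RPKM, Cacna1e, Cacna1a and Scn8a. In the progenitor list 11 were higher, led by the intermediate filament gene Nes (411, 353 and 356 RPKM against 78.8, 67.1 and 59.8, 2.73 ± 0.11). Vim, its partner filament, rose by 1.68 ± 0.08 and the cadherin gene Cdh2 by 1.43 ± 0.07. The rest were Tnc, Rgcc, Mfge8, Notch1, Hes1, Gli3, Zic2 and Ddah1, between 0.63 and 1.83, of which Notch1 and Hes1 stand in endothelial lists as well.

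Within the neural lists, longer transcripts were depleted less. Length was derived from the ratio of reads to RPKM and expressed relative to the median gene. Across the genes of a list, Spearman's rank correlation of length with log2 fold change was 0.52 for 49 pan-neuronal genes, 0.59 for 31 projection neuron genes, 0.59 for 35 ventral genes, 0.55 for 52 synapse and channel genes and 0.33 for 47 progenitor genes, while it was -0.004 for 44 endothelial surface genes. The relation was not particular to neural lists, with values of 0.82 for 14 red cell, 0.564 for 10 platelet, 0.383 for 20 mural and 0.349 for 36 microglial genes, and it ran the other way for 53 endothelial transcription factor genes (-0.309) and for 27 interferon and MHC class I genes (-0.431). The points are genes measured in the same 6 libraries and are not independent, and the values are descriptions. Split at the median length of all genes over 5 RPKM, the 23 shorter pan-neuronal genes had a median of -2.08 and the 26 longer ones -1.15. For projection neuron genes the medians were -2.01 over 11 and -1.31 over 20 genes. Over all 10399 genes above 5 RPKM with a length the rank correlation was 0.19, and the median log2 fold change ran from -0.29 in the shortest of 10 equal bins to 0.52 in the longest. The part of length in the size of the neural depletion was not tested.

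**Figure D4:**
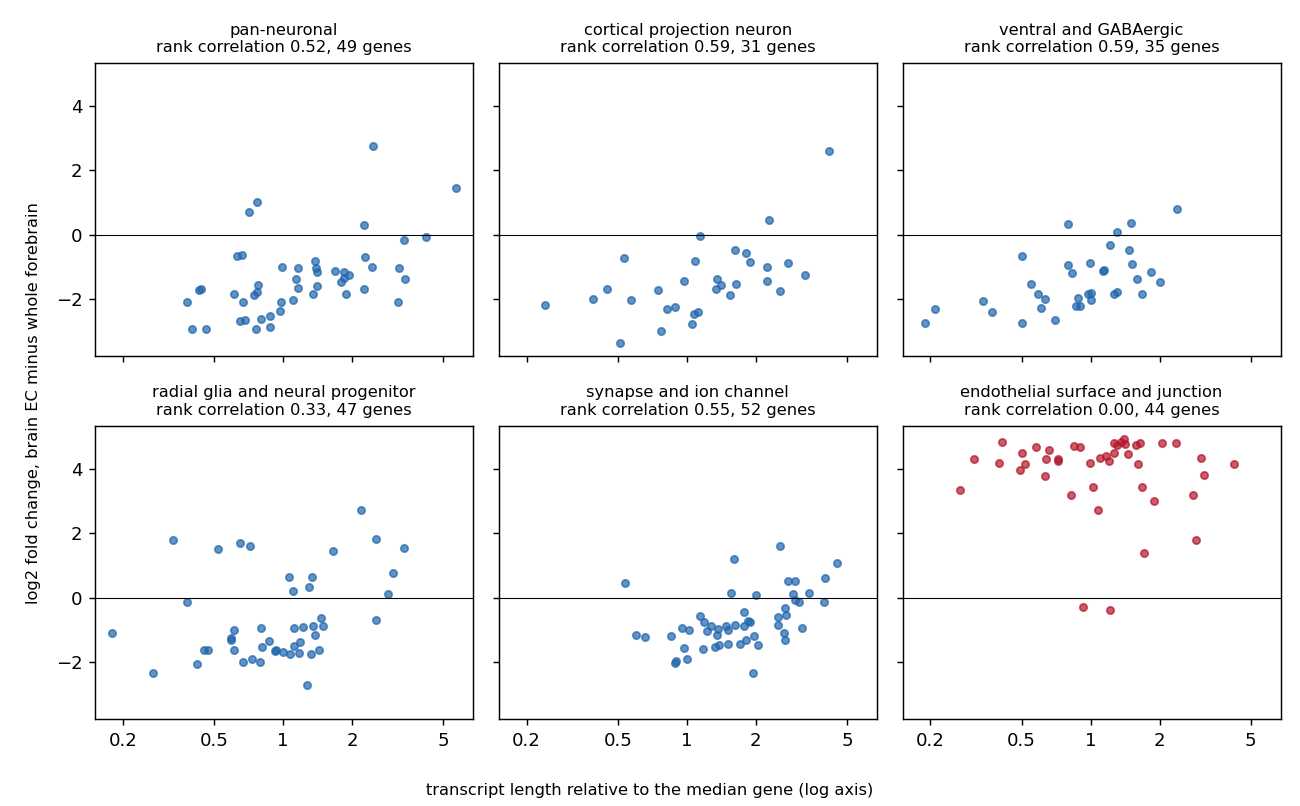
Log2 fold change, EC minus whole forebrain, against transcript length relative to the median gene (log axis), a point for each gene, for 5 neural lists and the endothelial surface and junction list. Shorter transcripts lie lower in the pan-neuronal, projection neuron, ventral and synapse panels (rank correlation 0.52 to 0.59), and the endothelial panel shows no such slope (rank correlation -0.004).

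Markers of mural cells were more often lower than higher, whereas meningeal and fibroblast markers moved in the same direction as the endothelial genes. Of 21 mural genes, 11 were lower and 5 were higher, with a median of -0.44 and a summed level of 221 to 259 RPKM in the EC libraries against 290 to 315. The pericyte genes Rgs5 (6.59, 5.13 and 5.65 RPKM against 21.5, 31.6 and 25.9, -1.89 ± 0.13), Kcnj8 (-2.16 ± 0.16), Ndufa4l2 (1.89, 1.27 and 0.880 against 13.2, 13.8 and 16.6, -3.13 ± 0.21) and Pdgfrb (-0.44 ± 0.09) were lower, none of them at 0, whereas the proteoglycan gene Cspg4 was higher (11.2, 9.35 and 10.2 against 2.05, 2.37 and 1.88, 2.58 ± 0.10). The highest level in this list was that of Mfge8, which was higher (1.61 ± 0.08), as were Vtn, Tbx18 and Anpep, by 0.48 to 0.78. Meningeal and fibroblast genes were higher in 21 of 26 cases and lower in 0, with a median of 0.99 and a sum of 638 to 821 RPKM against 298 to 332. Igf2 (289, 279 and 264 RPKM against 65.8, 89.6 and 75.6, 2.12 ± 0.11) took much of that sum, Col3a1 had 94.4, 47.3 and 73.9 RPKM against 41.6, 38.8 and 33.6 (1.21 ± 0.18), and Col1a1 rose by 0.80 ± 0.15. Under the total-count scaling the medians of the mural and the meningeal lists were -0.74 and 0.69. The part of meningeal transcripts in the basement membrane and forkhead results (Foxc1 and Foxc2 stand in both lists) was not tested.

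Microglial genes were lower in 11 of 36 cases (30.6%, against 21.4% of all genes tested) and higher in 2. By level in the higher group, 27.4% of all genes at 1 to 5 RPKM were lower, 27.1% at 5 to 50 and 39.5% over 50. The microglial share of lower genes lies within that range. The median of the microglial genes was -0.51 and their sum 170 to 182 RPKM against 190 to 212. Tyrobp, a microglial signalling adaptor, had 7.72, 7.96 and 8.12 RPKM against 21.7, 23.7 and 21.4 (-1.20 ± 0.10), and Csf1r and P2ry12 did not pass. An exception was Laptm5, a lysosomal membrane gene of blood lineages (57.4, 59.5 and 51.3 RPKM against 7.70, 8.80 and 7.56, 3.10 ± 0.09). Red cell genes summed to 147 to 194 RPKM against 217 to 302 and had a median of 0.16, which turned negative under the total-count scaling. Of 25, 2 were higher, Sptb and Alas2, and 1 was lower. Platelet and megakaryocyte genes (36.4 to 38.7 RPKM summed against 27.4 to 32.4, median -0.61) passed the test in 3 of 13 cases, Clec1b higher (22.0, 18.8 and 24.8 RPKM against 1.98, 1.51 and 1.42, 4.01 ± 0.15), Itga2b higher (0.84 ± 0.14) and Pf4 lower (-0.70 ± 0.13). The choroid plexus and hem list had 10 lower and 4 higher genes of 29 (median -0.44), or 34.5% lower against 21.4% of all genes tested. That share also lies within the range of 27.1% to 39.5% given above for genes over 1 RPKM. The transthyretin gene Ttr had 166, 121 and 142 RPKM against 497, 616 and 527 (-1.64 ± 0.11), and Igfbp2 did not pass the test. Enpp2, the autotaxin gene, was the exception with a large size (88.4, 69.2 and 91.3 against 12.2, 13.8 and 11.5, 2.98 ± 0.11), and Bmp7, Bmp4 and Msx1 were higher by 0.64 to 0.81.

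Ribosomal protein genes served as a reference group that both populations translate. Of 83, 73 did not pass, 6 were higher and 4 were lower, with a median of -0.15. The tagged gene Rpl10a had 5.77, 4.79 and 5.18 RPKM against 7.64, 6.07 and 5.89 and did not pass (-0.03 ± 0.14, adjusted p = 0.86). The higher genes were the paralogues Rpl39l, Rpl3l, Rpl7l1, Rps27l and Rps4y2, and Rpl38 (0.80 ± 0.12). The lower genes were Rpl22, Rpl7a, Rps15a and Rpl15, the last at 23.4, 27.2 and 24.2 RPKM against 87.4, 71.2 and 79.5 (-1.38 ± 0.09). The call of Rpl7a (-0.29 ± 0.06) was lost without any 1 of the 6 libraries, with an adjusted p in edgeR of 0.001 to 0.0045, and that of Rpl22 (-0.31 ± 0.07) without any of 5, at 0.0035 to 0.005. Reads of such genes can be shared with pseudogenes of almost the same sequence, which makes the individual values uncertain.

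To ask which enrichments belong to brain vessels, the endothelial fold change in forebrain was set against that in kidney, as an interaction term fitted over 12 translatome libraries and 19764 genes. The fold change was larger in brain for 3258 genes (16.5%) and smaller for 1700 (8.6%). General endothelial genes were also larger in brain, with a median difference of 1.49 over the 46 surface and junction genes (4.26 in brain and 2.78 in kidney), and 39 of these 46 passed. The 14 marker genes summed to 504 to 541 RPKM in the whole kidney and to 209 to 236 in the whole forebrain, and to 2604 to 3017 and 3835 to 3968 in the respective endothelial libraries. The lanes of the kidney groups also differed.

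Several barrier genes had differences well above 1.49, a distance that was not itself tested. Slc2a1 was enriched by 4.18 in brain and by 0.04 in kidney endothelium, a difference of 4.14 ± 0.10, with 23.9 to 25.2 RPKM in the kidney endothelial libraries against 698 to 754 in those of brain. Slc38a5 differed by 5.71 ± 0.30, Slc22a8 by 5.04 ± 0.39, Slc40a1 by 4.68 ± 0.16, Slc39a8 by 4.56 ± 0.11 and Slc7a5 by 3.94 ± 0.14. Lsr, Ocln, Mfsd2a, Slc7a8 and the Wnt pathway genes Tcf7 and Apcdd1 were higher in brain endothelium and lower in kidney endothelium than in their whole organs. For Lsr the kidney endothelial libraries held 3.13 to 3.50 RPKM and the whole kidney 22.7 to 26.5. Because the term combines 2 endothelia and 2 reference organs, a difference can come from either, and the Lsr levels differ in both. Foxf2, at 160 to 173 RPKM in brain endothelium, had 0.0381 to 0.0645 RPKM in that of kidney. Plvap differed by 1.26 ± 0.14, with 357 to 460 RPKM in kidney endothelium, whereas Aqp1 (-2.22 ± 0.17) and Nrp2 (-1.63 ± 0.09) were enriched more in kidney. The median difference was 1.52 for the 56 nutrient transporters, 1.20 for the 34 tight junction genes, 1.30 for the 43 Wnt pathway genes and 0.17 for the 33 ABC transporters. The pan-neuronal list had a median difference of -0.18 and the ribosomal proteins of 0.02, and over all genes the median was 0.15.

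**Figure D5:**
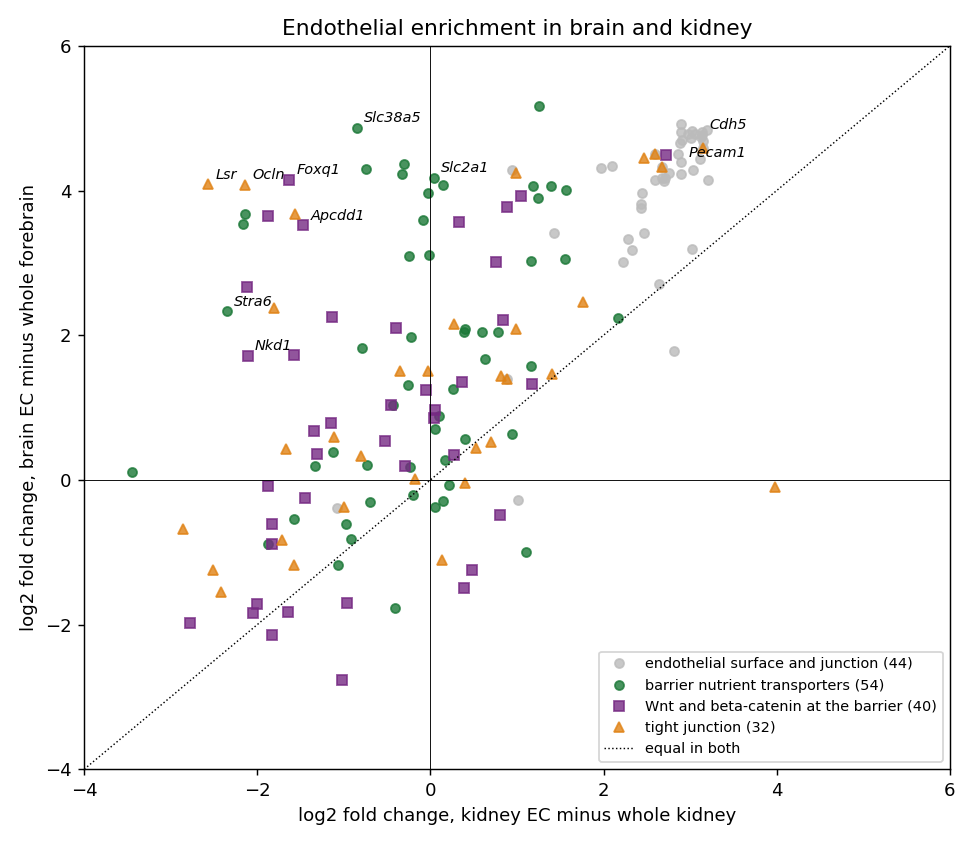
Log2 fold change of brain EC over whole forebrain (vertical) against that of kidney EC over whole kidney (horizontal) for genes of 4 lists whose standard errors were under 0.5, with a dotted line where both are equal. General surface genes lie above the line at the upper right, Slc2a1 (4.18 and 0.04) and Slc38a5 near the vertical axis, and Lsr (4.09 and -2.57), Ocln and Foxq1 left of it.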

How the data were processed

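Translating ribosome affinity purification followed by RNA sequencing was performed by the authors on pooled mouse forebrains at embryonic day 14.5, with polyA-selecting TruSeq v2 libraries that do not mark strand. Reads were mapped by the authors to GRCm38 (mm10) with the RUM pipeline, and the deposited counts are whole reads per RefSeq gene row. The deposited RPKM values are those reads per kilobase, scaled to the mapped reads, as the authors computed them. Each file held 23827 rows, of which 392 repeated a symbol and accession.

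Counts were fitted with edgeR 4.0.16 (R 4.3.3, quasi-likelihood test, TMM factors, genes with at least 1 read over the fitted samples), with Benjamini-Hochberg adjustment over all genes tested and calls at an adjusted p of 0.001. All adjusted p values come from this edgeR fit. Kidney was compared through an interaction term over 12 libraries. Named genes were the study's markers and Rpl10a, the 15 largest rises and falls among called genes of at least 5 RPKM whose groups did not overlap, and members of 28 lists, in which 6 symbols were not matched. Each list is given with its counts, and only described, and some members are not reported here. The members and lists were chosen with earlier results of these data known. Alternatives were DESeq2 1.42.0, RLE factors, total counts, a filter of 10 reads in 3 samples, a replicate block, a fit of all 21 samples, summed symbols, thinned libraries, limma 3.58.1 on log2(RPKM + 1) and log2(RPKM + 0.1), a threshold of 0.05, and leaving out each library. The scripts were tested on simulated data. Replicates were separate pools of embryos, and whether pools shared a litter is not given in the sources used here, so p-values measure the spread between these pools. Total reads set the precision and are given with the results.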

Additional observations from a re-analysis of the deposited data

Results flagged for a closer look

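Across 7 lists of barrier, sprouting and transcription factor genes (269 genes), 36 were called in opposite directions in the 2 endothelia relative to their whole organs, or 13.4%, and 21 of these, 7.81% of the 269, differed by more than 2-fold in each. Over all 19764 genes tested the shares were 3.17% and 1.12%. The genes were selected by these calls and by the interaction term (brain minus kidney, log2 scale) at an adjusted p under 0.001 in edgeR, so the differences below describe the selection and are not a further test. A difference can come from the endothelium or from the reference organ, and the part of each was not tested. The shares over the lists do not test an excess, because the lists were chosen with earlier results of these data known. The genes tested also include many that are hardly read and can rarely be called in both organs.

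Of the 21, 18 were higher in brain endothelium and lower in kidney endothelium. In the tight junction list these were Lsr, with a difference of 6.66 ± 0.11 (SE), Ocln with 6.23 ± 0.15, Marveld2 with 5.24 ± 0.20 and the claudin gene Cldn7 with 4.17 ± 0.43. The brain value of Cldn7 rests on levels of 0.227 to 0.37 RPKM against 0.0668 to 0.0749, and its call was lost without any 1 of the 6 libraries, where it ranged from 2.01 to 2.54 with an adjusted p in edgeR of 0.0011 to 0.0088. Among transporters they were the lipid carrier Mfsd2a with 5.82 ± 0.20, the amino acid carrier Slc7a8 with 5.71 ± 0.11 and the retinol receptor gene Stra6 with 4.67 ± 0.21. The Wnt pathway gave Tcf7 with 5.53 ± 0.13, Apcdd1 with 4.99 ± 0.13, the secreted Wnt inhibitor gene Notum with 4.79 ± 0.33, the inhibitor gene Nkd1 with 3.83 ± 0.15, Lef1 with 3.39 ± 0.13 and the receptor gene Fzd10 with 3.31 ± 0.15. Transcription factor genes were Foxq1 with 5.77 ± 0.21, Meox1 with 5.40 ± 0.25, Gata3 with 3.89 ± 0.33, Meox2 with 3.87 ± 0.29 and Foxc2 with 3.35 ± 0.23. Some brain values depended on the fit. Over 16 alternative fits of the brain libraries, Meox2 ran from 0.39 to 2.38, Notum from 1.21 to 3.06 and Gata3 from 1.41 to 2.87. Each of these genes kept its call in all 16.

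The other 3 were lower in brain endothelium and higher in kidney endothelium. They were the potassium channel subunit gene Abcc9 with -2.57 ± 0.14, the endothelin receptor gene Ednrb with -3.85 ± 0.15 and the fatty acid carrier gene Fabp5 with -4.41 ± 0.40.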

How the results depend on the processing

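The number of higher genes (4740) fell to 2931 with limma on log2(RPKM + 1) and 3067 on log2(RPKM + 0.1), and that of genes over 4-fold higher to 689 on log2(RPKM + 1), a scale that shrinks low genes. Genes over 4-fold lower rose from 516 to 891 with total counts. For the kidney comparison, smaller enrichments rose from 1700 to 2735 with DESeq2, and at a threshold of 0.05 there were 5335 larger and 3187 smaller. Leaving out 1 library gave 3909 to 4888 higher, 3238 to 4217 lower, 1396 to 1523 over 4-fold higher, 470 to 569 over 4-fold lower, 2866 to 3243 larger and 1434 to 1654 smaller genes. Some genes that had not passed the test passed it in the same direction in part of 16 alternative fits. Cldn12 did so in 6, Igfbp2 in 4, Chd5 and Abcc1 in 3 each, Cldn1, Csf1r and Wnt5a in 2 each, and Lyve1 in 1. Of 284 called genes named in the text, 34 missed the threshold without at least 1 library. Of these, 26 were under 1 in log2 size (Acvr2a, Anpep, Bmp4, Bmp7, Cacna1a, Cdkn1b, Col1a1, Elf2, Fzd8, Itga2b, Itgb5, Mef2c, Msx1, Nefl, Pdgfrb, Pf4, Pgf, Robo1, Rpl22, Rpl7a, Rpl7l1, Scn8a, Tbx18, Vcam1, Vtn and Zfp503), and the others were Abcg5, Alas2, Cldn7, Col3a1, Marveld3, Murc, Rpl39l and Tjp3, most often without whole-forebrain replicate 1.

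Direction turned under total counts, limma on log2(RPKM + 1) and limma on log2(RPKM + 0.1), in that order, for 8 genes that had not passed the test: Aqp1 (-0.14, -0.10, -0.13), Efnb2 (-0.21, -0.20, -0.20), Krit1 (-0.12, -0.07, -0.07), Mki67 (-0.14, -0.12, -0.12), Pcna (-0.08, -0.05, -0.05), Slc16a1 (-0.12, -0.09, -0.11), Smad2 (-0.13, -0.12, -0.13) and Smad4 (-0.10, -0.09, -0.10). All of these fits leave out the scaling for RNA composition. Their median shifts over all genes from the main fit were -0.3, -0.27 and -0.29, in the same order. The red cell list median turned likewise (-0.13, -0.02, -0.13) and ran from -0.24 without EC replicate 1 to 0.16 without whole-forebrain replicate 3, with -0.02 without whole-forebrain replicate 1. Without whole-forebrain replicate 1, Ccm2 was 0.05 and Rpl10a 0.11. Ccm2 was 0.01 without EC replicate 1, Rpl10a 0.03 without EC replicate 2, and the ABC median 0.03 without EC replicate 3. The cause of the turns without single libraries was not tested.

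With the replicate number as a replicate block there were 4665 higher and 4013 lower genes. Same-numbered libraries were separate pools, and their deviations correlated by only 0.07, 0.03 and -0.03, so the numbers do not pair the samples. Sequencing lane, Cre driver and group cannot be told apart, nor can an effect of tamoxifen be separated. With 3 libraries a group, what is seen for genes near 0 RPKM is limited.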
